A study of Homo sapiens with 8 samples.

Results

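The response of CAL27 cells to NEDD8 inhibition was measured in 4 of the 8 libraries of an RNA sequencing series: 2 libraries of cells given an inhibitor labelled NEDD8i and 2 of cells given DMSO, the solvent. These 4 libraries were chosen by their titles, and all genes that passed a filter on low counts, 18738, were compared. CAL27 is an established human line that the labels call squamous cell carcinoma, and both groups were collected 16 h after treatment in fresh medium, below confluence. The other 4 libraries are of A431, a human epidermoid carcinoma line treated in the same way, and enter the fit and the comparison of responses. The labels give no dose, no chemical name of the inhibitor and no genetic change in either group.

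NEDD8 is a small protein related to ubiquitin. It is activated by an enzyme made of NAE1 and UBA3, passed on by an E2 enzyme such as UBE2M, and attached to cullins, the scaffolds of cullin-RING ubiquitin ligases. Those ligases mark many short-lived proteins for destruction by the proteasome, among them the transcription factors NRF2 and HIF-1 alpha, the NF-kB inhibitor IkB alpha, the replication licensing factor CDT1 and several cell cycle inhibitors. The COP9 signalosome removes NEDD8 from cullins. These are facts of background and not results of these libraries.

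Total counts were 50713295 and 62509817 in the DMSO libraries of CAL27 and 53988181 and 59386972 in its NEDD8i libraries. Levels are CPM, a gene's counts relative to the library size as scaled by the TMM method. The libraries were made with a kit that primes on poly(A) tails, so the CPM of a gene is its share of such reads and is not compared between genes as a number of molecules. A log2 change is NEDD8i against DMSO, the value after ± is its approximate standard error, "rose by" and "fell by" give such log2 changes, and a gene was called where the edgeR quasi-likelihood test gave an adjusted p under 0.05. Nothing in the labels tells if a group's 2 libraries are of separate cultures, and the p-values therefore reflect only how these samples spread, which may be technical. Most genes named below were picked because they were called. Remarks that their groups did not overlap therefore describe the values and add no evidence to the call. As a check of the label, all 12 markers listed for squamous epithelium, among them KRT5, KRT14 and TP63, were detected. They summed to 17203 and 17092 CPM under DMSO and 23048 and 23820 under NEDD8i. The markers did not rise as one: 8 were called higher and 4 lower, with KRT5 and TP63 among the lower. In bulk RNA, fewer cells of a kind and less RNA per cell cannot be told apart.

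Within the NEDD8 pathway itself, the transcripts of the 2 subunits of the activating enzyme were not called, while the modifier and its E2 enzyme rose. NAE1 stood at 66.8 and 66.4 CPM under DMSO and 63.9 and 67.9 under NEDD8i, a log2 change of -0.01 ± 0.06 (adjusted p = 0.887). UBA3, the catalytic subunit, stood at 35.5 and 33.9 CPM under DMSO and 32.1 and 36.2 under NEDD8i (log2 change -0.02 ± 0.09, adjusted p = 0.864). For both genes the values of the treated libraries lay within or next to those of the controls. UBE2M (ENSG00000130725.8, chromosome 19, 58555712 to 58558611 on GRCh38) stood at 104 and 112 CPM under DMSO and 184 and 171 under NEDD8i and rose by 0.72 ± 0.06 (adjusted p = 9.41e-09). NEDD8 stood at 38.8 and 39.5 CPM under DMSO and 52.2 and 52.1 under NEDD8i and rose by 0.41 ± 0.07. In neither of these did the groups overlap, and 22.7% of the exonic bases of NEDD8 lie in exons of other genes as well. The neddylation list holds the E1, E2 and E3 enzymes of the pathway and the proteases that remove NEDD8. Of its 15 tested members 7 were higher and 2 lower (median log2 change 0.35), against 23.2% higher and 26.4% lower over all genes tested, whose median was -0.04. The DCN1-like E3 factor DCUN1D3 rose by 1.43 ± 0.15, to 18.1 and 18.8 CPM. The lower members were NUB1, which lowers NEDD8 levels (69.6 and 69.6 CPM under DMSO and 35.9 and 34.9 under NEDD8i), and the NEDD8 protease SENP8 (2.76 and 2.29 CPM under DMSO and 0.967 and 0.802 under NEDD8i).

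Of the 18738 genes tested, 9291 were called (49.6%): 4348 higher and 4943 lower. A change of at least 2-fold was found in 1204 higher genes (6.43%) and 2309 lower genes (12.3%), so 5778 called genes, or 62.2% of those called, changed by less. The lower and upper quartiles of all log2 changes were -0.72 and 0.46. Genes called higher made up 40.2% of the tested counts in each DMSO library and 56.4% and 56.6% in the NEDD8i libraries. Genes called lower made up 36.8% and 36.7% under DMSO and 21.8% and 21.6% under NEDD8i. These shares use no scaling between libraries, and the groups did not overlap. They include the genes' own calls, so they describe the size of the response and are no test of it.

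On the TMM scale genes called higher gained a summed 184420 CPM and genes called lower lost 130367. With no scaling beyond library totals the sums were 158003 and 158606. Without scaling, the CPM of all tested genes have the same total in each library, so gain and loss over all genes must balance. An excess of gain over all genes can therefore come only from the scaling and is not a finding about the cells. With RLE size factors, another scaling, the sums were 200054 and 123932. The gain was spread over many genes. The 288 genes with the largest gains held 50% of it, and the 274 with the largest losses held 50% of the loss. The 10 genes with most held 11.3% of the gain and 9.47% of the loss. Genes that changed at least 2-fold gave 36.2% of the gain and 48.5% of the loss, so most CPM moved in genes whose fold change was under 2.

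**Figure D1:**
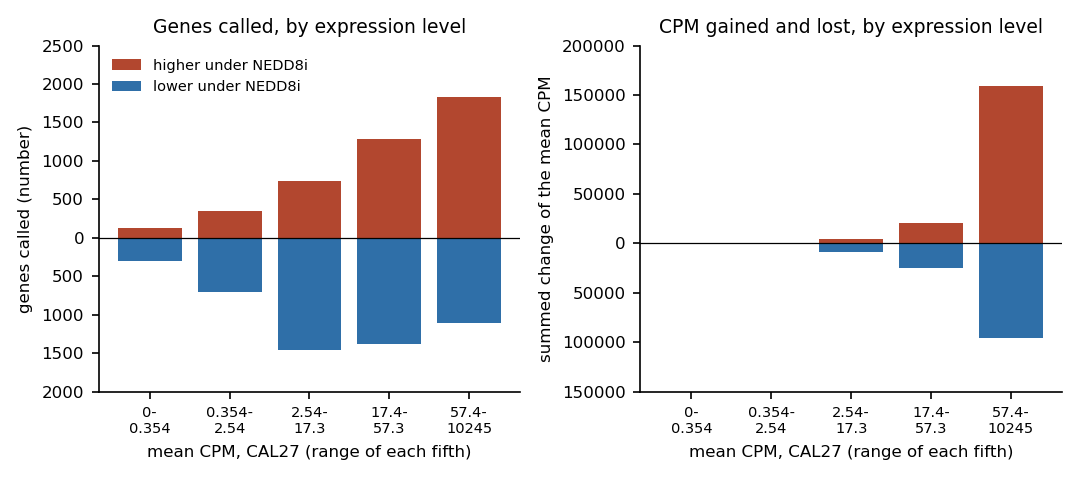
Bars give, for 5 equal classes of tested genes by mean CPM over the 4 CAL27 libraries (x axis), the number of genes called higher or lower (left) and their summed change of mean CPM (right), with lower genes drawn downward. Lower calls outnumbered higher ones in the 4 lower classes, while the highest class had 1837 higher and 1104 lower genes and 86% of the CPM gained.

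The direction of calls varied with expression level. Genes were split into 5 equal classes by mean CPM over the 4 CAL27 libraries, as the bars by expression class show. In the lowest class, under 0.354 CPM, 133 genes were higher and 296 lower, so 31% of the called genes were higher (95% exact binomial interval 26.7 to 35.6%). The next classes had 33.1% and 33.7% higher, the fourth 48.3%, and the highest, from 57.4 CPM up, 62.5% (60.7 to 64.2%). With no scaling the highest class had 54.4% higher. Genes are not independent, so these intervals cover counting only. They also do not allow for the filter on low counts, which a gene could pass by its level in a single group. The lowest class begins at a mean of 0 CPM, so some of its genes passed by their level in A431. The classes rest on a mean that includes the treated libraries. The share in the lowest class may therefore depend on which genes were admitted. The size of change ran the other way: the median absolute log2 change of called genes was 5.64 in the lowest class, where only large changes can be called, and 0.47 in the highest. The highest class held 86% of the CPM gained and 73.3% of the CPM lost.

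The 10 largest gains of CPM included 2 actins, 2 keratins and 2 glycolytic enzymes. ACTB, beta-actin (ENSG00000075624.17, chromosome 7, 5526409 to 5563902 on GRCh38), stood at 6049.6 and 5959.7 CPM under DMSO and 9428 and 9231 under NEDD8i, a gain of 3325 CPM with a log2 rise of only 0.64 ± 0.03. ACTG1, gamma-actin, rose by 0.68 ± 0.04, from 2106 and 2072 to 3344 and 3343 CPM. KRT6A, a keratin induced by wounding (ENSG00000205420.11, chromosome 12, 52487176 to 52493257 on GRCh38), stood at 1299 and 1299.5 CPM under DMSO and 4215 and 4273 under NEDD8i and rose by 1.71 ± 0.04. In all 3 genes both treated libraries lay above both controls. TXNRD1, the cytosolic thioredoxin reductase (ENSG00000198431.17, chromosome 12, 104215779 to 104350307 on GRCh38), stood at 318 and 320.2 CPM under DMSO and 3196 and 3170.3 under NEDD8i, the highest fold among these 10 genes (log2 rise 3.32 ± 0.04, adjusted p = 9.21e-20). SFN, which encodes 14-3-3 sigma, stood at 857 and 864 CPM under DMSO and 3387 and 3543 under NEDD8i and rose by 2.01 ± 0.04. FTL, the ferritin light chain, stood at 669 and 658 CPM under DMSO and 2402 and 2331 under NEDD8i and rose by 1.83 ± 0.04. The glycolytic enzymes ENO1 and LDHA gained 1826 and 1403 CPM with log2 rises of 0.46 ± 0.04 and 0.62 ± 0.04. KRT17, another stress keratin, and ANXA1, a phospholipid-binding protein, rose by 1.30 ± 0.05 and 1.27 ± 0.04. KRT6A has the near-identical copies KRT6B and KRT6C, and the actins have many processed pseudogenes, so reads that fit more than 1 copy may be missing from these values.

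The 10 largest losses of CPM included 3 genes of secreted proteins, IGFBP3, THBS1 and TNC. IGFBP3, which binds insulin-like growth factors (ENSG00000146674.16, chromosome 7, 45912245 to 45921272 on GRCh38), stood at 4149 and 4331 CPM under DMSO and 1621 and 1598 under NEDD8i and fell by 1.40 ± 0.03. THBS1, the matrix glycoprotein thrombospondin 1 (ENSG00000137801.11, chromosome 15, 39581079 to 39599466 on GRCh38), stood at 2369 and 2359 CPM under DMSO and 475 and 444 under NEDD8i and fell by 2.36 ± 0.05 (adjusted p = 1.31e-16). EGFR, the receptor for epidermal growth factor (ENSG00000146648.20, chromosome 7, 55019017 to 55211628 on GRCh38), stood at 1351 and 1376 CPM under DMSO and 586 and 567 under NEDD8i and fell by 1.24 ± 0.04. In each, the lower control was more than 2-fold above the higher treated library. The caveolar coat protein CAV1 fell by 1.27 ± 0.04, the tight junction protein CLDN1 by 1.26 ± 0.04 and the matrix protein TNC by 1.24 ± 0.05. KRT5, the basal keratin, stood at 7764 and 7722 CPM under DMSO and 6308 and 6559 under NEDD8i, a log2 change of only -0.27 ± 0.03, by which its level fell by 1309 CPM. The amino acid transporter SLC7A5 and the constitutive chaperone HSPA8 fell by 0.61 ± 0.03 and 0.63 ± 0.04. The mitochondrial gene MT-CO1 was among the 10 as well (4315 and 3708 CPM under DMSO and 3539 and 2580.03 under NEDD8i), with a log2 fall of 0.39 ± 0.12. Its call was lost without CAL27 DMSO replicate 1 (log2 change -0.18), without CAL27 NEDD8i replicate 2 (-0.21) and with DESeq2.

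**Figure D2:**
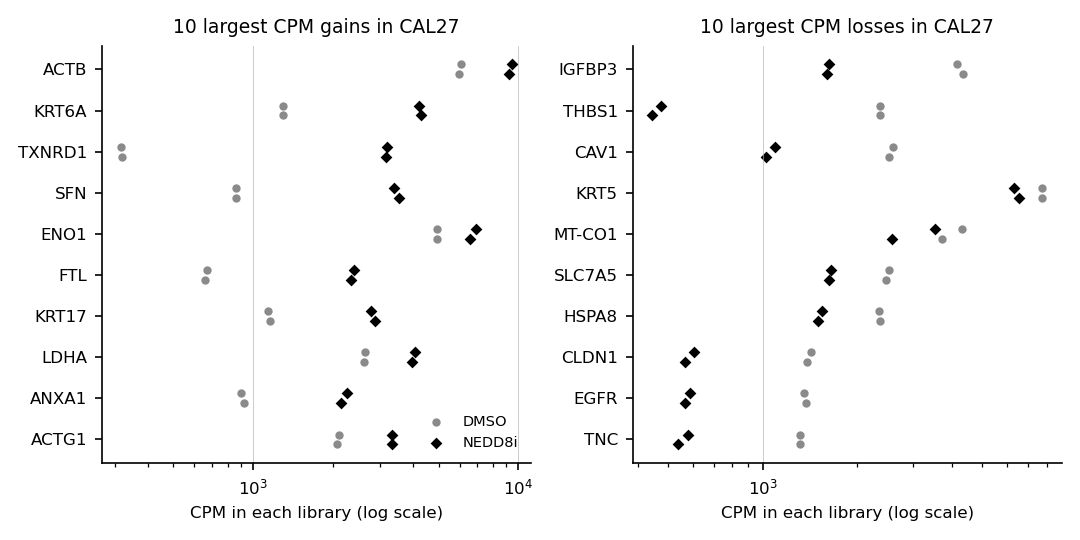
Points give the CPM of each of the 4 CAL27 libraries (log x axis) for the 10 called genes that gained most CPM (left) and the 10 that lost most (right), with grey circles for DMSO and black diamonds for NEDD8i. In 19 genes the gap between the groups is wider than the gap between replicates, while the MT-CO1 libraries of the 2 groups nearly touch.

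The largest fold changes were in genes near 0 in one group. Among genes with a mean of at least 1 CPM the 5 largest log2 rises included 4 with 0 counts in both DMSO libraries. They were 3 noncoding RNAs known by identifier, ENSG00000229261 (9.91 and 7.87 CPM under NEDD8i, at least 356-fold higher with a floor of 3 counts over the group), ENSG00000231683 (at least 224-fold) and ENSG00000251127 (at least 103-fold). The fourth was MYEF2, a DNA-binding protein of the myelin gene field (3.38 and 2.91 CPM, at least 126-fold). LINC01564 had 2 counts under DMSO and 800 under NEDD8i. Its log2 rise of 8.55 ± 0.54 became 11.58 without CAL27 DMSO replicate 2. Mates of a read pair were counted separately, so 3 counts are too low a floor and these bounds too large. Of all genes called higher 87 had 0 counts under DMSO, and of those called lower 177 had 0 under NEDD8i.

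The 5 largest falls among genes with a mean of at least 1 CPM held 4 immune genes. PLEKHS1, a pleckstrin domain protein, went from 3.04 and 4.21 CPM to 0 counts in both treated libraries and was at least 137-fold lower. CCL2, which attracts monocytes, stood at 34.4 and 35.3 CPM under DMSO and 0.223 and 0.267 under NEDD8i and fell by 7.13 ± 0.22. CIITA, the activator of HLA class II genes, stood at 25.2 and 23.8 CPM under DMSO and 0.335 and 0.234 under NEDD8i and fell by 6.43 ± 0.27. IDO1, which breaks down tryptophan, stood at 14.9 and 16.2 CPM under DMSO and 0.186 and 0.134 under NEDD8i and fell by 6.60 ± 0.27. In each of these the treated libraries held under 1 CPM. CXCL10, an interferon-induced chemokine, stood at 16.2 and 16.6 CPM under DMSO and 0 and 0.2 under NEDD8i (log2 change -7.25 ± 0.56). That value was -12.82 without CAL27 NEDD8i replicate 2 and -6.34 without replicate 1, and DESeq2 did not call it (adjusted p = 0.0718). In the other classes of expression the largest changes were in the immune receptor gene LY9 (0 counts under DMSO and 74 under NEDD8i, at least 26.1-fold) and SPP1, which encodes osteopontin (0.111 and 0.106 CPM under DMSO and 38.1 and 42.7 under NEDD8i). AKR1C1, a steroid-reducing enzyme, stood at 3.15 and 2.86 CPM under DMSO and 996 and 998 under NEDD8i, a 333-fold rise. MMP13, a collagenase, stood at 179 and 190.1 CPM under DMSO and 5.99 and 5.81 under NEDD8i and fell by 4.97 ± 0.12. The antisense RNA STARD4-AS1 had 80 counts under DMSO and 0 under NEDD8i. Its call was lost without CAL27 DMSO replicate 1 and with DESeq2, and 21.1% of its exonic bases lie in exons of other genes.

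Genes were then grouped into lists by pathway and families by symbol. Each list is described by the number of tested members called higher and lower and by its median log2 change, beside the 23.2% higher, 26.4% lower and median of -0.04 over all genes. Some lists share members, and no test was made of a list as a whole.

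**Figure D3:**
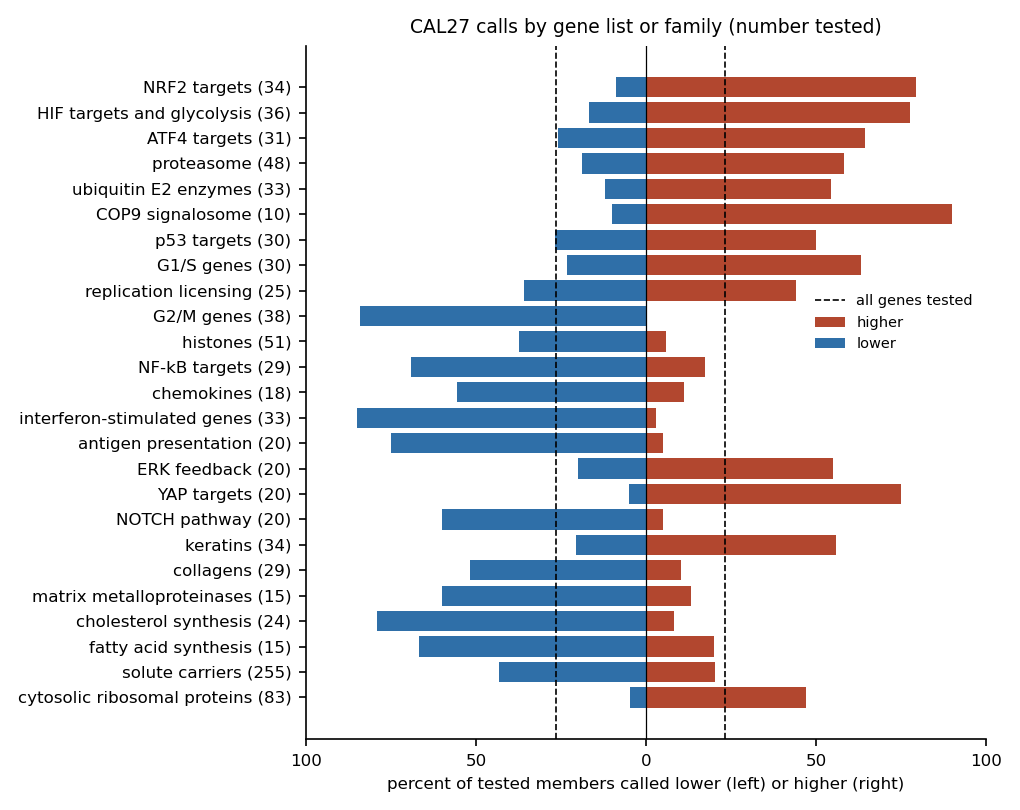
Bars give the percent of tested members called lower (left, blue) or higher (right, red) under NEDD8i in CAL27 for 25 lists and families, with the number tested in parentheses. Dashed lines mark 26.4% and 23.2%, the shares over all 18738 genes tested. Bars of the COP9 signalosome and of NRF2, HIF and YAP targets reach at least 75% on the right, and those of G2/M, interferon, cholesterol and antigen presentation genes at least 75% on the left.

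Targets of NRF2, the activator of antioxidant genes, were mostly higher: 27 of 34, with 3 lower and a median log2 change of 1.35. The list's summed level was 4669 and 4689 CPM under DMSO and 15236 and 14962 under NEDD8i. The rise took in thioredoxin, ferritin and NADPH-producing enzymes. TXN, thioredoxin, stood at 464 and 481 CPM under DMSO and 1219.6 and 1284 under NEDD8i and rose by 1.41 ± 0.04. PGD, of the pentose phosphate pathway, stood at 369 and 377 CPM under DMSO and 1175 and 1155 under NEDD8i and rose by 1.64 ± 0.04. AKR1C2 stood at 6.82 and 9.2 CPM under DMSO and 369.8 and 383 under NEDD8i and rose by 5.54 ± 0.09. Both treated libraries lay far above both controls in each. As AKR1C1, AKR1C2 and AKR1C3 hardly differ in sequence, how their reads were divided is uncertain. The 3 lower members were the export pumps ABCC1 (-0.35 ± 0.05) and ABCC3 (-0.68 ± 0.10) and PIR (-0.68 ± 0.07). TKT, transketolase, was not called at 447 and 433 CPM under DMSO and 459 and 419 under NEDD8i, nor was FTH1, the ferritin heavy chain, at 701 and 730.2 CPM under DMSO and 916 and 656 under NEDD8i. Of the exonic bases of FTH1, 57.6% lie in exons of other genes, and its log2 change of 0.14 ± 0.09 was -0.13 without CAL27 NEDD8i replicate 1.

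RefSeq promoter sequences show where the motifs linked with these factors lie. Each window ran from 250 bases before a transcription start to 50 after it, and both strands were searched. NRF2 binds the antioxidant response element, searched as TGACNNNGC. It was found in 7 of the 24 members with a promoter in the table and in 13.6% of all 27305 promoters. Of the members called higher with a match, the 2 with the largest CPM gain are shown, 5′ to 3′ on the gene's strand, from 250 bases before the start to 20 after, with the motif or its reverse complement in capitals. TXNRD1 is at chr12:104215529-104215798, plus strand (GRCh38.p14) and PGD at chr1:10398814-10399083, plus strand.
TXNRD1: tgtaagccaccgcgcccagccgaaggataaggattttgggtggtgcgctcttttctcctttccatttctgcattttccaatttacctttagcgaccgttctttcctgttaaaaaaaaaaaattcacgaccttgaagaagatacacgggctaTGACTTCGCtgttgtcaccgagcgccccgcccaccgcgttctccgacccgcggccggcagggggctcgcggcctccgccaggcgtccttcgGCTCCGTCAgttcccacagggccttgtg
PGD: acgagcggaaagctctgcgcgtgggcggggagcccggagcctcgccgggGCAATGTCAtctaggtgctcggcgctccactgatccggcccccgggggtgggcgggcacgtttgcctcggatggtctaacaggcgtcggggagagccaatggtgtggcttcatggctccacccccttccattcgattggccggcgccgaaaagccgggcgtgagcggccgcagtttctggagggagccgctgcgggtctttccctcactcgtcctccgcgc
A match shows only that these letters are present.

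HIF targets and glycolytic genes, the hypoxia response, were higher in 28 of 36 and lower in 6, with a median of 0.61. Only 7 rose at least 2-fold, but the list gained a net 6549 CPM. TPI1, triosephosphate isomerase, stood at 1115 and 1089.9 CPM under DMSO and 2034 and 2119.8 under NEDD8i and rose by 0.91 ± 0.04. PGK1, phosphoglycerate kinase, stood at 968 and 1012 CPM under DMSO and 1773 and 1745 under NEDD8i and rose by 0.83 ± 0.04. BNIP3, a mitophagy receptor, stood at 70.4 and 73.4 CPM under DMSO and 354 and 361 under NEDD8i and rose by 2.32 ± 0.05. The groups did not overlap in any of them. PKM, pyruvate kinase, was high under DMSO as well (4768 and 4797 CPM under DMSO and 3991 and 4055 under NEDD8i) and fell by 0.25 ± 0.03. MXI1, a MYC antagonist, was not called (17.3 and 16.2 CPM under DMSO and 17.9 and 14.2 under NEDD8i). The core of the hypoxia response element, ACGTG, was found in 16 of 32 promoters of the list and in 21.6% of all promoters.

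Genes driven by ATF4, the factor of the integrated stress response, were higher in 20 of 31 and lower in 8 (median 0.45). SLC7A11, the cystine transporter and also an NRF2 target, stood at 23 and 22.7 CPM under DMSO and 469 and 456 under NEDD8i and rose by 4.34 ± 0.07. PPP1R15A, which restarts translation by removing the stress mark from eIF2, stood at 68 and 80.8 CPM under DMSO and 458 and 463 under NEDD8i and rose by 2.63 ± 0.08. CHAC1, which degrades glutathione, stood at 5.41 and 4.51 CPM under DMSO and 46.2 and 46.1 under NEDD8i and rose by 3.22 ± 0.09. The amino acid transporters of this list did not move as one: SLC3A2, the heavy chain partner of SLC7A5 and SLC7A11, rose by 0.42 ± 0.05 while SLC7A5 fell. Uncalled members included the tRNA export factor XPOT (190.04 and 191 CPM under DMSO and 196 and 183 under NEDD8i) and ALDH18A1, of proline synthesis (178 and 172 CPM under DMSO and 178 and 175 under NEDD8i). No promoter of the 25 matched members held TGATGNAAT, the element of C/EBP and ATF4, which 1.02% of all promoters hold.

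Targets of p53 were higher in 15 of 30 and lower in 8 (median 0.27). SFN, listed here as well, made most of the list's net gain of 3186 CPM. CDKN1A, the cell cycle inhibitor p21, stood at 30.6 and 30.8 CPM under DMSO and 225 and 223 under NEDD8i and rose by 2.87 ± 0.06 (adjusted p = 1.29e-16). GADD45A, a growth arrest gene, stood at 29.9 and 31.9 CPM under DMSO and 146 and 168 under NEDD8i and rose by 2.34 ± 0.07. PMAIP1, which encodes the cell death protein NOXA, stood at 39.3 and 37.6 CPM under DMSO and 125 and 117 under NEDD8i and rose by 1.66 ± 0.07. Both treated libraries lay far above both controls in these 3. Other members of the list, such as CCNG1 (54.5 and 47.5 CPM under DMSO and 42.2 and 45.7 under NEDD8i), ZMAT3 (28.5 and 27.1 CPM under DMSO and 26.9 and 26.2 under NEDD8i) and RRM2B (31.7 and 27.1 CPM under DMSO and 29.5 and 28.7 under NEDD8i), were not called, and PLK2 fell by 0.49 ± 0.06. In the BCL2 family, which controls cell death at mitochondria, 11 of 18 were higher and 3 lower. MCL1, a survival protein, stood at 348 and 359.6 CPM under DMSO and 651 and 668 under NEDD8i and rose by 0.90 ± 0.04. The lower members were BMF (-3.04 ± 0.23), BOK (-0.73 ± 0.09) and BID (-0.27 ± 0.07), and the BID call was lost without CAL27 DMSO replicate 2 or CAL27 NEDD8i replicate 2.

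Cell cycle genes split by phase. Of 30 G1/S genes 19 were higher and 7 lower (median 0.47), and of 38 G2/M genes 0 were higher and 32 lower (median -0.96). Among G1/S genes RRM2, a subunit of ribonucleotide reductase, stood at 407 and 404 CPM under DMSO and 821 and 827 under NEDD8i and rose by 1.02 ± 0.04. FEN1, a flap endonuclease of replication, stood at 111 and 119 CPM under DMSO and 235 and 258 under NEDD8i and rose by 1.10 ± 0.05. CDC25A, a phosphatase that activates cyclin-dependent kinases, stood at 21.7 and 22.2 CPM under DMSO and 69.3 and 74.1 under NEDD8i and rose by 1.71 ± 0.08. All 3 were higher in both treated libraries. CCND1, cyclin D1, moved the other way (316 and 329 CPM under DMSO and 127 and 125 under NEDD8i) and fell by 1.36 ± 0.04. POLA1 (66.5 and 68.9 CPM under DMSO and 68.9 and 66.1 under NEDD8i) and POLE2 (20 and 16.5 CPM under DMSO and 20.4 and 18.3 under NEDD8i), subunits of DNA polymerases, were not called.

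Replication licensing genes, which load the MCM helicase onto DNA, were mixed: 11 of 25 higher and 9 lower. CDC6, a loading factor, stood at 108 and 111 CPM under DMSO and 323 and 323 under NEDD8i and rose by 1.55 ± 0.05. ORC6, of the origin recognition complex, rose by 1.45 ± 0.07 and DTL, the substrate receptor that directs a cullin ligase to CDT1, by 1.05 ± 0.06. MCM subunits differed among themselves: MCM7 rose by 0.46 ± 0.04 (515 and 541 CPM under DMSO and 731 and 718 under NEDD8i), while MCM3 fell by 0.61 ± 0.05 and MCM6 by 1.26 ± 0.05 (178 and 178 CPM under DMSO and 76.1 and 73.3 under NEDD8i). The median of this list, 0.05, turned to -0.03 with no scaling.

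The fall of G2/M genes was broad, and their summed level fell by 3716 CPM. TOP2A, a DNA topoisomerase, stood at 716 and 686 CPM under DMSO and 368 and 371 under NEDD8i and fell by 0.93 ± 0.04. CDC20, an activator of the anaphase-promoting complex, stood at 499.98 and 488 CPM under DMSO and 202 and 193 under NEDD8i and fell by 1.32 ± 0.06. CDC25B, a phosphatase of mitotic entry, stood at 315 and 315 CPM under DMSO and 40 and 41 under NEDD8i and fell by 2.96 ± 0.05, the largest fall among the called members. Each had both treated libraries well below both controls. CCNB1, cyclin B1, fell by 1.84 ± 0.06, MKI67, the Ki-67 antigen, by 1.55 ± 0.11 and KIF20A, a kinesin of cytokinesis, by 2.83 ± 0.08. CDK1, the mitotic kinase, was not called at 163 and 168 CPM under DMSO and 162 and 161 under NEDD8i, nor were AURKB (96.1 and 103 CPM under DMSO and 101 and 94.9 under NEDD8i) and the transcription factor FOXM1 (207 and 213 CPM under DMSO and 200.5 and 185 under NEDD8i). The cell cycle homology region, TTTGAA, through which many G2/M genes are repressed outside mitosis, was found in 21 of 31 promoters of the list and in 15.4% of all promoters. The 2 falling members with a match that lost most CPM are shown with the motif in capitals. TOP2A is at chr17:40417877-40418146, minus strand and CDC20 at chr1:43358731-43359000, plus strand.
TOP2A: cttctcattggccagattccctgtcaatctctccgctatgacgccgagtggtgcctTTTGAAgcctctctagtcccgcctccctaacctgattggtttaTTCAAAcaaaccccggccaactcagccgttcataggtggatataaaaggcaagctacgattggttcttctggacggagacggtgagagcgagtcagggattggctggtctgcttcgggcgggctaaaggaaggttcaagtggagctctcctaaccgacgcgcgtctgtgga
CDC20: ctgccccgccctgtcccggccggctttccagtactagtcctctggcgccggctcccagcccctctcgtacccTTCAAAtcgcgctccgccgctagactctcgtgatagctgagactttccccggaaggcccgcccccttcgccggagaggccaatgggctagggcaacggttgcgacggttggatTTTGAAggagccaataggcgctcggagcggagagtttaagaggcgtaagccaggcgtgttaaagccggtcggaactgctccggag

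Histone genes were lower in 19 of 51, 18 of them at least 2-fold, and higher in 3, none of them 2-fold (median -1.32). H2AC25, a core histone gene, stood at 8.75 and 8.11 CPM under DMSO and 1 and 0.601 under NEDD8i and fell by 3.40 ± 0.20, and H3C10, another, fell by 3.17 ± 0.37. H2AX, the variant phosphorylated at DNA breaks, stood at 119 and 109.8 CPM under DMSO and 73.1 and 76.6 under NEDD8i and fell by 0.61 ± 0.06. The replacement variants H3-3B and H2AZ2 rose by 0.31 ± 0.04 and 0.25 ± 0.05, from 478 and 495 and from 503 and 509.95 CPM. The other riser, H2AZ1, had 284 and 282 CPM under DMSO and 306 and 324 under NEDD8i, and its call was lost with no scaling and without CAL27 NEDD8i replicate 2. Most replication-dependent histone mRNA has no poly(A) tail and the genes are near-identical copies, so these counts hold little of it.

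**Figure D4:**
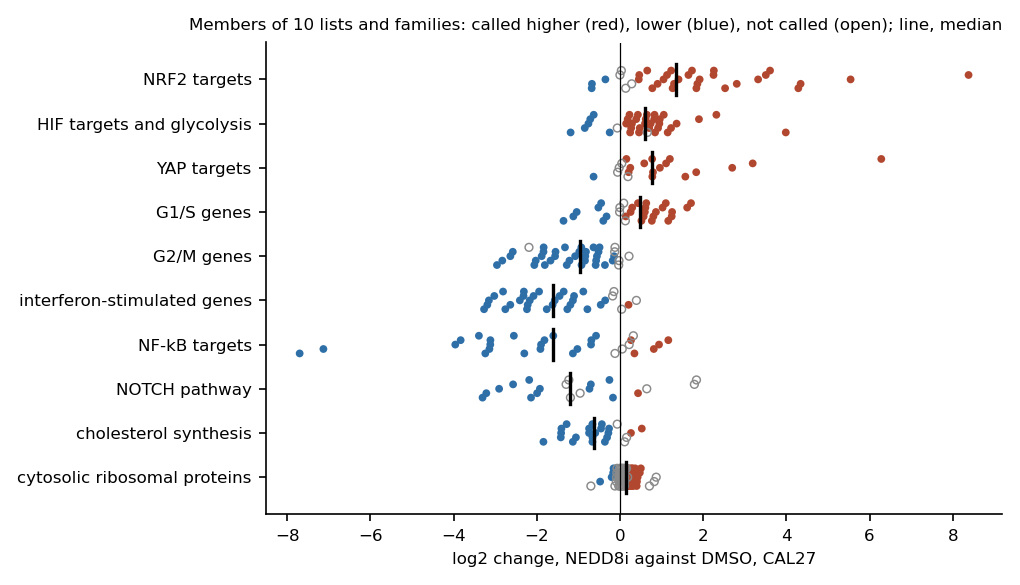
Each point is the log2 change of 1 tested member (x axis) of 10 lists and families, red where called higher, blue where called lower and open where not called. Black lines mark the medians, which run from 1.35 for NRF2 targets to -1.62 for interferon-stimulated genes, while most ribosomal protein genes lie close to 0.

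NF-kB targets, genes of the inflammatory response, were lower in 20 of 29 and higher in 5, with a median of -1.61. NFKBIA, which encodes the inhibitor IkB alpha and is itself a target, stood at 163 and 172 CPM under DMSO and 17.7 and 20.7 under NEDD8i and fell by 3.12 ± 0.08. TNFAIP2 stood at 626 and 661 CPM under DMSO and 64.9 and 71.4 under NEDD8i and fell by 3.24 ± 0.05. IL1B, interleukin 1 beta, stood at 114 and 130.03 CPM under DMSO and 33.2 and 36 under NEDD8i and fell by 1.82 ± 0.08. In all 3 the treated libraries lay below the controls by a factor of more than 3. The members that rose were CXCL8, which attracts neutrophils (147 and 168 CPM under DMSO and 296 and 308 under NEDD8i, log2 0.94 ± 0.08), the prostaglandin enzyme PTGS2 (1.16 ± 0.11), the NF-kB inhibitors TNFAIP3 (0.35 ± 0.06) and TNIP1 (0.26 ± 0.05), and the growth factor CSF2. The CSF2 rise of 0.81 ± 0.26 was lost without either CAL27 DMSO replicate or CAL27 NEDD8i replicate 1. Uncalled members included the NF-kB subunit NFKB2 (54.7 and 57.1 CPM under DMSO and 48.6 and 54.2 under NEDD8i) and the cytokine LIF (26.3 and 29.7 CPM under DMSO and 34.2 and 30.9 under NEDD8i). Of 18 chemokines tested, 10 were lower and 2 higher. CX3CL1, fractalkine, stood at 143 and 147 CPM under DMSO and 11.2 and 12.8 under NEDD8i and fell by 3.59 ± 0.09. CXCL16 was the other riser, by 0.64 ± 0.06. The chemokine median of -2.42 was -2.47 without 2 members whose counts did not exceed the floor in either group.

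The NF-kB site was searched as GGGA, any base, then TTTCC, which 0.579% of all promoters hold and 8 of the 23 matched promoters of the list. The 2 falling members with a match that lost most CPM are NFKBIA, at chr14:35404730-35404999, minus strand, and CXCL1, at chr4:73869143-73869412, plus strand. CXCL1, a neutrophil attractant, stood at 110.4 and 128 CPM under DMSO and 13.3 and 13.7 under NEDD8i and fell by 3.14 ± 0.10. The motif is in capitals.
NFKBIA: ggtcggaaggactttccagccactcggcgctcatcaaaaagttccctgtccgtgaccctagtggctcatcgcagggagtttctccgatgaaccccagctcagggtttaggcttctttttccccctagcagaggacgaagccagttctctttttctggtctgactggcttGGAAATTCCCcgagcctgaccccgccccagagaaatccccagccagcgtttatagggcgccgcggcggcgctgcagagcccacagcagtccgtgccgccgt
CXCL1: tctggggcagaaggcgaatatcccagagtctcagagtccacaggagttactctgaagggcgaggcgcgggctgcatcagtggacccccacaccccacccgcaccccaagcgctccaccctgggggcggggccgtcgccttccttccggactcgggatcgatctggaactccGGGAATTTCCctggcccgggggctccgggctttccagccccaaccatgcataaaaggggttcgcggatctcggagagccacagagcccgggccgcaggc

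Interferon-stimulated genes were lower in 28 of 33, 24 of them at least 2-fold, and higher in 1 (median -1.62). OAS3, a sensor of double-stranded RNA, stood at 479.7 and 496 CPM under DMSO and 158 and 159 under NEDD8i and fell by 1.62 ± 0.04. IFIT3, an antiviral protein, stood at 285 and 291 CPM under DMSO and 31.9 and 31.2 under NEDD8i and fell by 3.19 ± 0.06 (adjusted p = 5.43e-17). Controls and treated libraries did not overlap in either. MX1, an antiviral GTPase, fell by 1.76 ± 0.06 and OAS2 by 2.64 ± 0.07. SAMD9 rose by 0.20 ± 0.05. IFI27 (359.5 and 422 CPM under DMSO and 397 and 406 under NEDD8i) and IFI6 (130.05 and 155 CPM under DMSO and 111 and 146 under NEDD8i) were not called, and 23.1% of the exonic bases of IFI6 are shared with other genes. The interferon-stimulated response element, searched as GAAA, any 2 bases, then GAAA, was found in 18 of 26 promoters of the list and 3.65% of all. The 2 falling members with a match that lost most CPM are OAS3, at chr12:112938224-112938493, plus strand, and IFIT3, at chr10:89327747-89328016, plus strand, with the motif in capitals.
OAS3: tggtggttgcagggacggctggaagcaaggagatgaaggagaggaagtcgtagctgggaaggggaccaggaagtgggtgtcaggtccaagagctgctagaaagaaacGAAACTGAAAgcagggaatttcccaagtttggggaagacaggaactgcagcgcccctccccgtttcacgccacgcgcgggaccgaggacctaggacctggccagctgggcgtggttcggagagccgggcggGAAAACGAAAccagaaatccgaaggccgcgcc
IFIT3: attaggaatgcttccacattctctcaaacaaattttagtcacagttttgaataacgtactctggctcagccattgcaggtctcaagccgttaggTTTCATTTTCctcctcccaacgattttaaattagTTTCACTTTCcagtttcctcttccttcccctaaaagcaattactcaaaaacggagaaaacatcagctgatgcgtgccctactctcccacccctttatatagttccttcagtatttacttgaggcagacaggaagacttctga
These motifs differ in letters and none contains another, and overlapping matches of different motifs were not compared.

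Antigen presentation genes were lower in 15 of 20 and higher in 1 (median -0.69). The immunoproteasome subunit PSMB9 stood at 145 and 152 CPM under DMSO and 23.7 and 22.7 under NEDD8i and fell by 2.68 ± 0.07, and PSMB8 fell by 1.54 ± 0.05. ERAP2, which trims peptides, stood at 185 and 192 CPM under DMSO and 54 and 47.1 under NEDD8i and fell by 1.90 ± 0.08. Of 18 HLA genes 1 was higher and 5 lower, 2 of them at least 2-fold. HLA-DMA, which helps load class II molecules, stood at 14.5 and 14.1 CPM under DMSO and 3.18 and 3.99 under NEDD8i and fell by 1.99 ± 0.19. Among class I genes HLA-B fell by 0.39 ± 0.05, HLA-C (1046 and 1074 CPM under DMSO and 933 and 1039 under NEDD8i) was not called, and the nonclassical HLA-E rose by 0.31 ± 0.04. B2M, the light chain of class I molecules, stood at 1315 and 1347 CPM under DMSO and 1069.9 and 1111 under NEDD8i and fell by 0.29 ± 0.04. Of the exonic bases of HLA-B, 23.7% lie in exons of other genes, and HLA genes resemble each other, so some of their reads may be missing.

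Among the EGF receptor family and its ligands 4 of 13 were higher and 5 lower, and the 4 that rose were all ligands. HBEGF stood at 15 and 15.3 CPM under DMSO and 170.3 and 168 under NEDD8i and rose by 3.48 ± 0.07. TGFA stood at 46.1 and 45.2 CPM under DMSO and 188 and 170.5 under NEDD8i and rose by 1.97 ± 0.06. AREG, amphiregulin, stood at 12.5 and 13.2 CPM under DMSO and 80.3 and 86.4 under NEDD8i and rose by 2.70 ± 0.08, and EREG, epiregulin, rose by 1.43 ± 0.05. EGFR fell, as above. The other 4 that fell, named here after their values were seen, were the receptors ERBB2 and ERBB3 and the ligands BTC and NRG1. Of 20 genes of ERK feedback, which MAP kinase signalling induces, 11 were higher and 4 lower. FOSL1, an AP-1 subunit, stood at 115 and 125 CPM under DMSO and 1058 and 894 under NEDD8i and rose by 3.02 ± 0.09. EPHA2, an ephrin receptor, stood at 203 and 221 CPM under DMSO and 1052 and 1052 under NEDD8i and rose by 2.31 ± 0.05. FOS, the founding AP-1 subunit, stood at 578 and 589 CPM under DMSO and 32.1 and 29.6 under NEDD8i and fell by 4.24 ± 0.09. EGR1, an immediate early factor, stood at 474 and 514 CPM under DMSO and 108 and 87.2 under NEDD8i and fell by 2.34 ± 0.08. The AP-1 family thus split. FOSL1 and JUN (178 and 193 CPM under DMSO and 381 and 392 under NEDD8i, log2 1.06 ± 0.07) rose, while FOS, FOSB (103 and 101 CPM under DMSO and 9.22 and 11 under NEDD8i) and JUNB (302 and 327 CPM under DMSO and 99.1 and 98.3 under NEDD8i) fell by 4.24 ± 0.09, 3.33 ± 0.14 and 1.67 ± 0.05.

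NOTCH pathway genes were lower in 12 of 20 and higher in 1 (median -1.21). Among receptors NOTCH1 stood at 232 and 212 CPM under DMSO and 57.9 and 53.5 under NEDD8i and fell by 1.99 ± 0.07, and NOTCH3 fell by 0.70 ± 0.05. Among ligands JAG2 stood at 143 and 139.7 CPM under DMSO and 17 and 20.6 under NEDD8i and fell by 2.91 ± 0.08, and JAG1 fell by 0.74 ± 0.05. Among targets HES1 stood at 52.9 and 56.5 CPM under DMSO and 5.17 and 5.88 under NEDD8i and fell by 3.31 ± 0.09, and the feedback gene NRARP fell by 2.18 ± 0.11. Each receptor, ligand and target named so far was picked as called lower and had both treated libraries below both controls. HES4 was the member that rose (21.9 and 21.4 CPM under DMSO and 28 and 30.5 under NEDD8i, log2 0.43 ± 0.12). HEY1 (1.15 and 1.45 CPM under DMSO and 1.56 and 2.51 under NEDD8i) and HEY2 (1.17 and 1.18 CPM under DMSO and 0.558 and 0.468 under NEDD8i) were not called.

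Targets of YAP, the effector of the Hippo pathway, were higher in 15 of 20 and lower in 1 (median 0.77). AMOTL2, an angiomotin that restrains YAP, stood at 128 and 138 CPM under DMSO and 475 and 469.7 under NEDD8i and rose by 1.83 ± 0.05. AJUBA, a LIM protein, stood at 195 and 206 CPM under DMSO and 466 and 453 under NEDD8i and rose by 1.20 ± 0.05. ANKRD1, a repeat protein of muscle and wounded tissue, stood at 0.445 and 0.394 CPM under DMSO and 31.9 and 33.2 under NEDD8i and rose by 6.28 ± 0.21. VGLL3, a cofactor of TEAD factors, stood at 17 and 14.9 CPM under DMSO and 153 and 137 under NEDD8i and rose by 3.19 ± 0.09. No group overlapped with the other in these. CCN2, also called connective tissue growth factor, fell by 0.64 ± 0.09, and the tissue factor gene F3 was not called at 488 and 518 CPM under DMSO and 519 and 473 under NEDD8i.

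Keratins, the intermediate filaments of epithelia, were higher in 19 of 34 and lower in 7, and their summed level was 14869 and 14868 CPM under DMSO and 19684 and 20361 under NEDD8i. KRT14, the partner of KRT5 in basal cells, stood at 2492 and 2466 CPM under DMSO and 3236 and 3487 under NEDD8i and rose by 0.44 ± 0.04 while KRT5 fell. KRT18, of simple epithelia, stood at 408 and 419 CPM under DMSO and 885 and 919.97 under NEDD8i and rose by 1.13 ± 0.04. KRT81, a hair keratin, went from 1.26 and 1.42 to 36.7 and 36.7 CPM and rose by 4.76 ± 0.10. KRT34, another, had 0.148 and 0.348 CPM under DMSO and 62.7 and 60.6 under NEDD8i. Its log2 rise of 7.89 ± 0.27 lay between 7.48 and 8.69 when 1 library was left out, the highest without CAL27 DMSO replicate 2. TP63, the master regulator of basal keratinocytes, stood at 522 and 529 CPM under DMSO and 123 and 109 under NEDD8i and fell by 2.18 ± 0.06. Among integrins, receptors for the matrix, 6 of 26 were higher and 10 lower. ITGB4 and ITGA6, the 2 chains of the hemidesmosome receptor, fell by 1.59 ± 0.04 and 0.71 ± 0.04, from 761 and 748 and 658 and 682 CPM. ITGA2 and ITGB1, the chains of a collagen receptor, rose by 0.97 ± 0.06 and 0.69 ± 0.04. Laminins changed in opposite directions: LAMB3 of laminin 332 rose by 1.45 ± 0.04 (646 and 659 CPM under DMSO and 1765 and 1796 under NEDD8i), LAMA3 of the same trimer was not called (142 and 152 CPM under DMSO and 160.4 and 154 under NEDD8i), and LAMA5 fell by 1.66 ± 0.05 (391 and 376 CPM under DMSO and 121 and 122 under NEDD8i).

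Collagens and matrix metalloproteinases were more often lower than higher. Of 29 collagens 15 were lower and 3 higher. COL17A1, of the hemidesmosome, stood at 688 and 721 CPM under DMSO and 364 and 336 under NEDD8i and fell by 1.01 ± 0.05. COL5A1, a fibrillar collagen, stood at 151 and 150.2 CPM under DMSO and 18.3 and 19.9 under NEDD8i and fell by 2.98 ± 0.09. COL12A1 rose by 0.47 ± 0.06 (210.4 and 225 CPM under DMSO and 311 and 292 under NEDD8i), and the other 2 that rose, COL15A1 and COL4A3, were under 1.1 CPM in every library. COL15A1 lost its call without either CAL27 DMSO replicate or CAL27 NEDD8i replicate 2. Matrix metalloproteinases were lower in 9 of 15, each at least 2-fold, and higher in 2. MMP1 stood at 81.2 and 89.6 CPM under DMSO and 18.4 and 16 under NEDD8i and fell by 2.31 ± 0.12. MMP14, a membrane-bound collagenase, stood at 158 and 164 CPM under DMSO and 249.7 and 260.2 under NEDD8i and rose by 0.66 ± 0.04. The other riser, MMP24OS, an antisense transcript by name, lost its call without CAL27 DMSO replicate 1 or CAL27 NEDD8i replicate 2. The list of the urokinase system, which makes plasmin outside cells, and of protease-activated receptors was higher in 8 of 15 and lower in 5. PLAUR, the urokinase receptor, stood at 31.1 and 31.1 CPM under DMSO and 269.6 and 265 under NEDD8i and rose by 3.10 ± 0.05. SERPINB2, an inhibitor of urokinase, stood at 5.73 and 5.96 CPM under DMSO and 675 and 617 under NEDD8i and rose by 6.79 ± 0.08 (adjusted p = 1.74e-19). PLAU, urokinase itself, stood at 372 and 392 CPM under DMSO and 312 and 322 under NEDD8i and fell by 0.27 ± 0.05, with 28.7% of its exonic bases in exons of other genes. PLAT, the tissue-type activator, fell by 1.54 ± 0.15.

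Lipid synthesis genes were mostly lower. Cholesterol synthesis genes were lower in 19 of 24 and higher in 2 (median -0.63). LSS, lanosterol synthase, stood at 150.4 and 152 CPM under DMSO and 40.8 and 43.5 under NEDD8i and fell by 1.84 ± 0.07. DHCR7, which makes cholesterol in the last step, stood at 309 and 313 CPM under DMSO and 207 and 186 under NEDD8i and fell by 0.66 ± 0.06. SREBF2, which encodes the factor that drives these genes, stood at 308 and 309 CPM under DMSO and 184 and 184 under NEDD8i and fell by 0.74 ± 0.04. The controls lay above the treated libraries in all 3. FDPS rose by 0.26 ± 0.05, with 20% of its exonic bases inside other genes' exons. CYP51A1, with 78.1% inside, had a rise of 0.52 ± 0.16 that was lost without CAL27 DMSO replicate 1 or CAL27 NEDD8i replicate 2. Fatty acid synthesis genes were lower in 10 of 15 and higher in 3 (median -0.77). SREBF1, which encodes their driver, stood at 363 and 363 CPM under DMSO and 79 and 78.5 under NEDD8i and fell by 2.20 ± 0.05. FASN, fatty acid synthase, stood at 927 and 925 CPM under DMSO and 290.5 and 327 under NEDD8i and fell by 1.58 ± 0.05. SCD, a desaturase, stood at 1418 and 1490.5 CPM under DMSO and 846 and 861 under NEDD8i and fell by 0.77 ± 0.03. ACLY, which supplies acetyl-CoA, was not called at 232 and 238 CPM under DMSO and 234 and 223 under NEDD8i. The members that rose were ELOVL1 (0.79 ± 0.05), FADS1 (0.61 ± 0.06) and SCD5, whose call was lost without CAL27 DMSO replicate 2 or either CAL27 NEDD8i replicate.

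Solute carriers, the largest transporter family, were lower in 110 of 255 and higher in 52, with a median of -0.22 (-0.23 with members at 0 in a group set at their bound). Their summed level was 14128 and 14109 CPM under DMSO and 13480 and 13569 under NEDD8i. The family was taken by symbol, so these counts include genes named after a carrier, such as SLC2A4RG (called lower) and SLC7A6OS (called higher). SLC7A11 and SLC3A2 rose and SLC7A5 fell, as above. The mitochondrial carriers SLC25A3 (636 and 605 CPM under DMSO and 601 and 651 under NEDD8i) and SLC25A5 (658 and 652 CPM under DMSO and 647 and 676 under NEDD8i) were not called.

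Genes of the proteasome and of ubiquitin E2 enzymes were more often higher than lower. Proteasome subunits and chaperones were higher in 28 of 48 and lower in 9 (median 0.29), and gained a net 2615 CPM. PSMD2, of the regulatory particle, stood at 764 and 771 CPM under DMSO and 1666 and 1641 under NEDD8i and rose by 1.11 ± 0.04. PSMC3, an ATPase subunit, stood at 262 and 275 CPM under DMSO and 486 and 477 under NEDD8i and rose by 0.84 ± 0.04. PSMB7, a catalytic subunit, stood at 370.5 and 380.2 CPM under DMSO and 625 and 564 under NEDD8i and rose by 0.66 ± 0.05. The treated libraries were above the controls in each, whereas the interferon-induced subunits PSMB8, PSMB9 and PSMB10 fell by 1.54 ± 0.05, 2.68 ± 0.07 and 2.51 ± 0.12. Of the exonic bases of PSMB10, 38.3% lie in other exons. Ubiquitin E2 enzymes were higher in 18 of 33 and lower in 4. UBE2J2 stood at 69.9 and 70.6 CPM under DMSO and 131 and 147 under NEDD8i and rose by 0.98 ± 0.07. UBE2L6, the E2 of the interferon-induced modifier ISG15, stood at 182 and 174 CPM under DMSO and 50.9 and 53.4 under NEDD8i and fell by 1.77 ± 0.06, and UBE2C, which acts in mitosis, fell by 0.36 ± 0.05. The other 2 that fell, UBE2D4 and UBE2Z, lost their calls without CAL27 DMSO replicate 2, and UBE2Z also without replicate 1.

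Of 10 COP9 signalosome subunits 9 were higher, none of them 2-fold, and COPS7A fell by 0.35 ± 0.06 (median 0.35). COPS3 stood at 159.8 and 162 CPM under DMSO and 237 and 228 under NEDD8i and rose by 0.53 ± 0.05. The rise of GPS1, 0.20 ± 0.05, was lost with no scaling and without CAL27 NEDD8i replicate 1. Cullin-RING ligase parts were higher in 14 of 39 and lower in 8, shares of 35.9% and 20.5% against 23.2% and 26.4% over all genes. KLHL21, an adaptor of CUL3, stood at 90.9 and 95.5 CPM under DMSO and 313 and 317 under NEDD8i and rose by 1.76 ± 0.06. KEAP1, the adaptor that directs NRF2 to CUL3, stood at 113 and 126 CPM under DMSO and 209 and 208 under NEDD8i and rose by 0.80 ± 0.06. CUL9 stood at 15.2 and 13.2 CPM under DMSO and 3.64 and 5.91 under NEDD8i and fell by 1.56 ± 0.15. CUL1 (87.4 and 92.1 CPM under DMSO and 91.6 and 84.2 under NEDD8i), CUL4A (126 and 133 CPM under DMSO and 127 and 133 under NEDD8i) and the F-box protein SKP2 (103 and 98.3 CPM under DMSO and 103 and 109 under NEDD8i) were not called. In the larger families of substrate receptors, which bring targets to cullins, calls went in both directions. Of 57 F-box proteins 13 were higher and 19 lower, 2 and 9 of them at least 2-fold. FBXO32, known from muscle wasting, stood at 157 and 158 CPM under DMSO and 6.02 and 6.47 under NEDD8i and fell by 4.66 ± 0.09, and FBXO3 stood at 57.1 and 54.8 CPM under DMSO and 190.5 and 186 under NEDD8i and rose by 1.75 ± 0.06. Of 48 KLHL and KCTD adaptors of CUL3 18 were higher and 17 lower, 5 and 7 at least 2-fold. Of 31 DCAF and SOCS-box receptors 10 were higher and 11 lower, 2 and 4 at least 2-fold. Over all genes 6.43% rose and 12.3% fell at least 2-fold, and the 2-fold counts of these families lie not far from those shares.

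Ribosomal protein genes changed by small steps that depended on the scaling. Cytosolic ribosomal proteins were higher in 39 of 83 and lower in 4, none of them 2-fold, with a median of 0.13. With no scaling 23 were higher and 8 lower, with a median of 0.05. RPS20 stood at 589 and 610.4 CPM under DMSO and 781 and 885 under NEDD8i and rose by 0.47 ± 0.05. RPL10A stood at 560.4 and 553 CPM under DMSO and 388 and 411 under NEDD8i and fell by 0.48 ± 0.04, with RPL3 (0.17 ± 0.03), RPS9 (0.20 ± 0.05) and RPL37 (0.16 ± 0.04) the other members that fell. The calls of RPS9 and RPL37 were lost without CAL27 DMSO replicate 2. RPL7A (2164 and 2121 CPM under DMSO and 2069 and 2159 under NEDD8i) was not called. Ribosomal protein genes have many processed pseudogenes, so part of their reads may be missing. Transcripts of the mitochondrial genome were lower in 11 of 17 and higher in 2. Their summed level was 16675 and 14798 CPM under DMSO and 14510 and 10070 under NEDD8i, so CAL27 NEDD8i replicate 2 stood apart from its partner by more than the groups did. MT-ND5 stood at 447 and 389 CPM under DMSO and 299.6 and 175 under NEDD8i and fell by 0.82 ± 0.17, a call that held in each library left out. The calls of MT-CO1, MT-ND4, MT-CYB and MT-ATP6 were lost without that library, and those of these 4 and MT-CO2 were lost without CAL27 DMSO replicate 1. The 2 called higher were the ribosomal RNAs MT-RNR1 and MT-RNR2, and both calls were lost with no scaling and without CAL27 NEDD8i replicate 1.

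Of markers of other cell types, leukocyte markers summed to 16.7 and 18.6 CPM under DMSO and 1.80 and 1.74 under NEDD8i, with PTPRC, CD68 and LYZ at 0 counts in all 4 libraries. CD14 made nearly all of that sum (16.3 and 17.8 CPM under DMSO and 1.6 and 1.7 under NEDD8i) and fell by 3.36 ± 0.23. ITGAM, the only other tested member, stood at 0.334 and 0.787 CPM under DMSO and 0.0372 and 0 under NEDD8i and was called lower (log2 -4.81 ± 1.65), a call lost without either CAL27 DMSO replicate or CAL27 NEDD8i replicate 2. Without CAL27 NEDD8i replicate 1 its log2 value was -7.98. Both tested leukocyte markers were thus lower. Fibroblast markers summed to 20.8 and 24.1 CPM under DMSO and 6.56 and 10.8 under NEDD8i with COL3A1 at 0, and 2 of 5 tested fell (COL1A1 and COL1A2). Endothelial markers summed to between 6.19 and 11.1 CPM with KDR at 0, and mesenchymal ones to between 245.0 and 277.7, of which FN1 and SNAI2 held most. Of the 7 mesenchymal genes VIM stood at 1.59 and 0.681 CPM under DMSO and 1.28 and 1.75 under NEDD8i. The part of any of these cell types in the changes above was not tested.

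A431 was measured beside CAL27, so each response could be set against the other by a test of the difference. Over all genes 22.5% were higher and 21.1% lower in A431, and the response differed for 6369 genes (34%), 2658 with a higher log2 change in CAL27 (14.2%) and 3711 with a lower one (19.8%). Of 5828 genes called in both lines 4893 moved in the same direction and 935 in opposite ones. The difference test called all 935, which opposite calls in the same fit make nearly certain, so it adds no evidence for them. The 935 were 319 that rose in CAL27 and fell in A431 and 616 that did the reverse. Cholesterol synthesis genes differed in 21 of 24, all with a lower log2 change in CAL27. NRF2 targets were higher in 33 of 34 in A431, with a median of 1.997 against 1.35 in CAL27. Of these targets 26 differed, 18 with a lower log2 change in CAL27 and 8 with a higher one. HIF targets and glycolytic genes had a median of 1.28 in A431 against 0.61, and 23 of 27 differences were lower in CAL27. G2/M genes were lower in 36 of 38 in A431, with a median of -1.24 against -0.96 in CAL27. Interferon-stimulated genes differed in 28 of 33, 23 of them with a lower log2 change in CAL27. Most of that list fell in A431 as well, where 27 were lower and 3 higher (median -0.78). NF-kB targets differed in 23 of 29, 22 of them lower in CAL27: CXCL1 changed by 2.98 ± 0.21 in A431, a difference of -6.12 ± 0.22 (adjusted p = 1.91e-12). IL1B changed by 1.88 ± 0.09 in A431 (difference -3.69 ± 0.12, adjusted p = 6.44e-13). NOTCH3 changed by 1.65 ± 0.06 in A431 (difference -2.35 ± 0.08, adjusted p = 7.55e-13). FASN changed by 0.01 ± 0.05 in A431 (difference -1.60 ± 0.07, adjusted p = 1.13e-11). Ribosomal protein genes differed in 61 of 83, 59 with a higher log2 change in CAL27. By contrast no difference was detected for FTL (0.02 ± 0.05, adjusted p = 0.796), HBEGF (-0.01 ± 0.09, 0.98) or KIF20A (0.08 ± 0.11, 0.636).

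**Figure D5:**
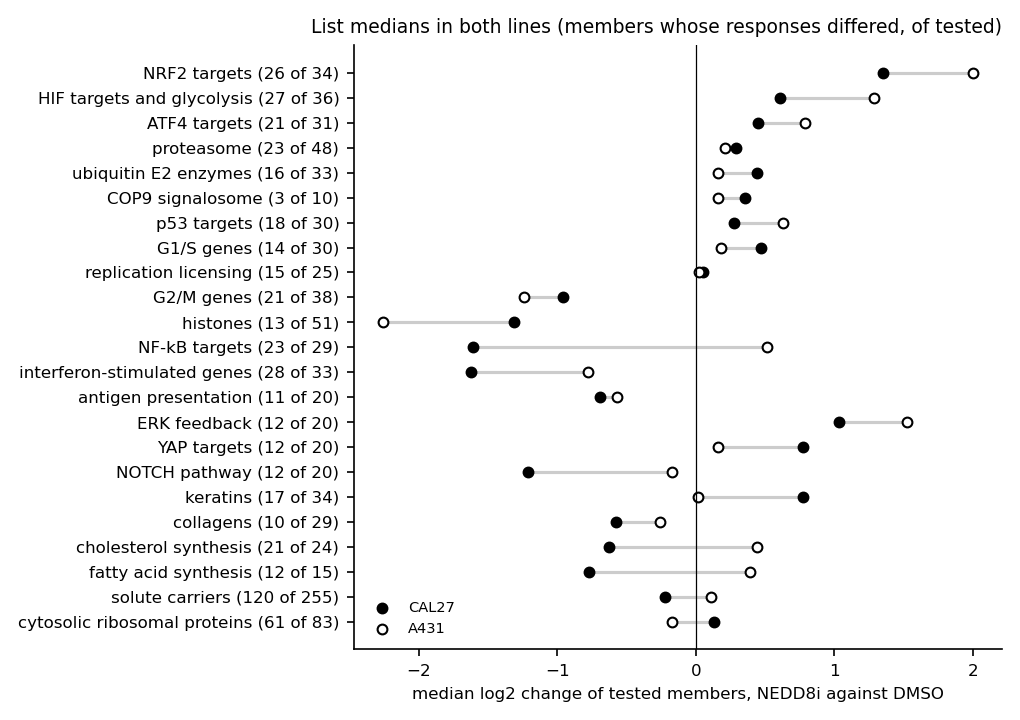
Points give the median log2 change of the tested members of 23 lists and families (x axis), filled for CAL27 and open for A431, with the number of members whose responses differed by the test in parentheses. Medians lie on opposite sides of 0 for NF-kB targets, for both lipid synthesis lists, and for solute carriers and ribosomal proteins.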

How the data were processed

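RNA was measured in 8 libraries, 2 for each of CAL27 and A431 under DMSO and under NEDD8i, made with a QuantSeq forward kit. Per the file headers, the authors counted reads per gene with featureCounts 2.0.8 on GENCODE 39 without using strand, and the deposited counts are raw whole numbers. The mates of a pair were counted separately, which the surplus of even values among counts of 1 to 40 (70.2 to 76.7% in the 8 libraries) also shows. Per the submitters' processing notes, STAR and GRCh38 were used. The counted alignments had been filtered, per the file headers, by a rule not given in the sources used here. Unstranded counting leaves genes that overlap on opposite strands uncertain.

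All libraries entered 1 fit with 4 group means in edgeR 4.0.16 (R 4.3.3): filterByExpr, TMM scaling and the quasi-likelihood test with residual df 4, with Benjamini-Hochberg adjustment over 18738 genes. Every adjusted p printed comes from this test unless DESeq2 is named, and 0.05 was the threshold. The difference of responses was the contrast between the 2 lines. Total counts were 49037868 to 62509817 per library, and a floor of 3 counts is 0.048 to 0.0612 CPM. Intervals and floors cover counting error only. The fit was tested on simulated data.

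Genes were named by rule: NEDD8, NAE1, UBA3 and UBE2M, the 10 with the largest gain and loss of CPM, the 5 with the largest log2 rise and fall at a mean of at least 1 CPM, the extremes of each expression class, and in each list described up to 5 called members by CPM and 2 by log2 change, up to 5 against the majority, and up to 4 not called, by level. The libraries, lists and families were chosen with earlier results of these data known. Replicate numbers did not pair samples: the deviations of libraries numbered 1 in the groups of CAL27 correlated at -0.03. Replicates of a group differed by more than sampling noise (chi-square per degree of freedom 6.26 to 13.0). Promoters and their sequences are from RefSeq on GRCh38.p14, matched by symbol. Symbols paired with 61369 of 61533 identifiers. Alternatives were RLE size factors, no scaling, 2 other filters, DESeq2 1.42.0, the CAL27 libraries alone, halved counts, a replicate block, and each library left out, with 2 further choices for the CPM sums and the classes. A few genes that the rule names are not reported here.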

Additional observations from a re-analysis of the deposited data

Results flagged for a closer look

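The responses of the 2 lines differed for 6369 genes by the interaction test of edgeR. That test also called 18 of the genes named above for their role in the NEDD8 pathway or their gain or loss of CPM, and their values follow as the CAL27 log2 change minus that of A431. NEDD8 was higher in its response by 0.30 ± 0.10 and NAE1 lower (-0.71 ± 0.09). Among genes that gained CPM in CAL27, the difference was 0.31 ± 0.05 for ACTB, 0.15 ± 0.05 for ACTG1, 0.70 ± 0.05 for KRT6A, 0.43 ± 0.07 for KRT17, 0.56 ± 0.06 for ANXA1 and 0.24 ± 0.05 for TXNRD1. All of these rose in both lines, and more in CAL27. LDHA rose less in CAL27 (-0.76 ± 0.05). Among genes that lost CPM, the largest difference was that of THBS1 (-2.24 ± 0.06), which changed by -0.12 ± 0.05 in A431. It was -1.23 ± 0.05 for IGFBP3, -0.998 for TNC, -0.90 ± 0.05 for EGFR, -0.73 ± 0.06 for CLDN1, -0.73 ± 0.05 for HSPA8 and -0.63 ± 0.05 for SLC7A5. CAV1 (0.19 ± 0.06) and KRT5 (0.16 ± 0.04) differed the other way, with a smaller fall in CAL27. No cause of these differences was tested.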

How the results depend on the processing

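Of the 605 named genes that were called, 522 kept their call and direction under all 16 alternatives that tested them, 83 lost the call under at least 1 and 0 reversed. Counts of genes called stayed within a factor of 1.5. With 1 library left out, 3710 to 4639 were higher and 3966 to 5005 lower, and responses differed from A431 for 5240 to 6023. With the replicate number as a block, 4317 were higher and 4900 lower, 1153 and 2227 of them at least 2-fold. The summed CPM gained was 200054 with RLE size factors, 158003 with no scaling, 199843 with DESeq2, 203142 with the CAL27 libraries alone, 191359 over all genes tested, and 180559 to 193235 with 1 library left out. The sum lost was 123932 with RLE size factors, 158606 with no scaling, 120991 with DESeq2, 136648 over all genes tested, and 121278 to 135067 with 1 library left out. The 10 genes with most held 10.9% of the gain with RLE size factors, DESeq2 (10.91%) or the CAL27 libraries alone (10.92%), 12.5% with no scaling and 11.0 to 11.5% with 1 library left out, and 9.44 to 10.1% of the loss. In the lowest class 38.3% of called genes were higher with the CAL27 libraries alone and 26.9 to 36.6% with 1 library left out. In the highest it was 64.8% with RLE size factors, 54.4% with no scaling, 64.9% with DESeq2, 64.4% with CAL27 alone, 65.7% in the top of 10 classes and 60.7 to 64.4% with 1 library left out. A minimum of 1 CPM left no gene in the lowest class. The sign of some uncalled genes turned with 1 library left out. FTH1 (-0.13 to 0.36) and KLK13 (-5.52 to 1.97) turned without CAL27 NEDD8i replicate 1 and NDUFA4 (-0.18 to 0.14) without replicate 2. They are examples and not a full count of such genes. The cause was not tested. With 2 libraries a group and an arm reduced to 1, that library is assumed to vary like the others. The lowest class, under 0.354 CPM, holds genes with few counts, where only large changes can be called.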

Other observations

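Some groups of genes outside the accounts above also moved. Of 12 aldo-keto reductases, the AKR1C genes included, 7 were higher and 3 lower. Aldehyde dehydrogenases, which oxidise aldehydes, were lower in 12 of 18 and higher in 4 (median log2 change -0.86). Metallothioneins, which bind zinc and copper, were lower in 4 of 7 and higher in 0. TRIM ligases, a ubiquitin ligase family without cullins, were lower in 24 of 48 and higher in 10, and SOX factors were lower in 7 of 11 and higher in 1. Translation initiation factors were higher in 29 of 52 and lower in 11. SUMO pathway genes, which handle another relative of ubiquitin, were higher in 10 of 18 and lower in 2. Each count stands beside 23.2% higher and 26.4% lower over all genes tested.

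By type of gene, 3946 of 13677 protein-coding genes were higher and 4439 lower (28.9% and 32.5%), against 23.2% and 26.4% over all genes tested. Of 1264 processed pseudogenes 104 were higher and 20 lower (8.23% and 1.58%). Of the 247 that derive from ribosomal protein genes 23 were higher and 1 lower (9.31% and 0.405%). Their reads may belong to the parent genes. Antisense genes were higher in 65 and lower in 148 of 1141 (5.70% and 13.0%). Long intergenic RNAs were higher in 112 and lower in 161 of 987 (11.3% and 16.3%). The shares of these noncoding types and of the pseudogenes lie below those over all genes tested. The share of genes called depended on expression level, from 11.4% in the lowest of the 5 classes to 78.5% in the highest. Gene types were not compared at matched levels.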
